A study of Schizosaccharomyces pombe with 29 samples.

Results

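Splicing factor genes of Schizosaccharomyces pombe (fission yeast) were followed across 8 RNA-seq libraries from cells with normal, added or deleted RNase H, which cuts the RNA strand of RNA-DNA hybrids. They were taken by name: every row called prp, cwf or lsm with a digit after it, antisense rows excepted. This gave 49 of 7016 rows, of which 19 are prp genes, 22 are cwf genes and 8 are lsm genes. The rule reads names and no values.

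The wild-type group (WT) had 3 libraries. The pRnhA group had 3 libraries of cells that overexpress the Escherichia coli gene rnhA, and the labels do not name its promoter. The rnh1∆rnh201∆ group had 2 libraries of cells without rnh1 (RNase H1) and without rnh201 (the catalytic subunit of RNase H2). All 8 came from cells grown in PMG, a minimal medium, and moved to 34 °C for 3 hours before harvest, which the wild type shared. Values are the authors' DESeq2 normalized counts. Nothing in the labels says that replicates came from separate cultures, so p-values measure the spread between these libraries, which may be technical where they share a mating-type transcript.

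A spliceosome removes an intron in 2 cutting and joining steps. The U1 and U2 particles first mark the intron's ends and its branch site, the preformed tri-snRNP of U4, U6 and U5 then joins, the Prp19 complex enters as U4 leaves, and ATP-driven helicases move the machine from step to step and take it apart. The names prp (precursor RNA processing) come from splicing mutants, and the names cwf from proteins copurified with Cdc5, a core member of the Prp19 complex. Lsm proteins form rings of 7 subunits: the ring with Lsm8 holds the end of the U6 RNA in the nucleus, whereas the ring with Lsm1 promotes decapping of mRNA in the cytoplasm, so not every lsm gene serves splicing alone. A good share of fission yeast genes carry introns, which makes these proteins part of ordinary gene expression there.

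The libraries stood as labelled for the deleted genes: rnh1 was at 36 and 23 and rnh201 at 7 and 12 in the rnh1∆rnh201∆ libraries, against 290 to 320 and 300 to 460 in the other 6. The sum of normalized counts ran from 8392168 to 9455805, and the raw depth is unknown. The deposited values keep at most 2 significant digits, so a value of 10 or more is uncertain by up to 5% from rounding alone. Of the mating-type transcripts, 5 libraries held mat1-Mc, whereas WT replicate 3, pRnhA replicate 3 and rnh1∆rnh201∆ replicate 1 held mat2-Pc.

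All 49 genes were measured in every library, with normalized counts from 69 to 2700, and all passed the filter on low values. Of these, 46 had a mean of at least 200, and prp38, cwf20 and cwf18 lay under it. Levels of different genes are not ranked here because no gene length of the authors' build was used. Between any 2 WT libraries the median difference of a splicing factor gene was 0.067 to 0.097 on the log2 scale, while for the 4532 genes averaging 200 or more it was 0.10 to 0.18. Between pRnhA libraries the 2 were close, at 0.085 to 0.099 for the splicing factor genes and 0.075 to 0.088 for those genes. The 2 rnh1∆rnh201∆ libraries differed by 0.082 in both.

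**Figure D1:**
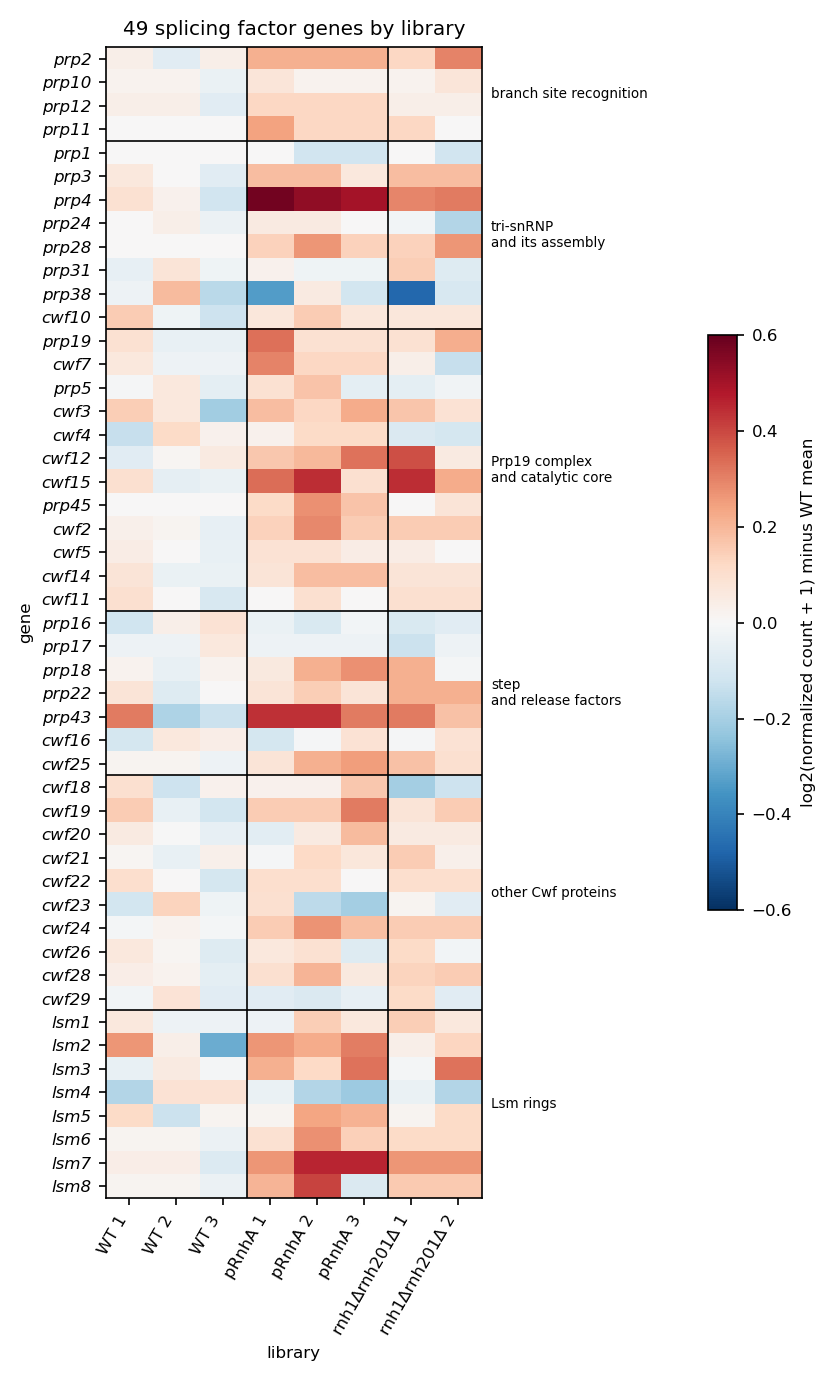
Each cell of the heat map is one gene (rows, grouped by role) in one library (columns), coloured by log2(normalized count + 1) minus the WT mean of that gene. The row of prp4 is dark red in all 3 pRnhA libraries and lighter red in both rnh1∆rnh201∆ libraries.

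The comparison of pRnhA with WT asked which of these transcripts differ between cells that overexpress rnhA and the wild type. The overexpression itself was not checked here. Limma called prp4, lsm7 and prp2 higher and no member lower. Of the 49 genes, 3 were past the threshold of 0.05 after Benjamini-Hochberg adjustment in limma, 6.12% of them, against 20.2% of the 6456 genes tested. By direction, 8.88% of all genes tested were called higher and 11.4% lower. The authors' deposited table has 12 members past 0.05, all higher, where it has 32.4% of all genes with a p-value. They are prp2, prp11, prp3, prp4, prp28, cwf15, prp45, cwf2, cwf14, prp43, cwf19 and lsm7. The tilt of the members was upward: 40 of 49 had a positive log2 fold change, against 51% of all genes, and their median was 0.13, against 0.002 for all genes. Fold changes throughout are on the log2(value + 1) scale. The 3 pRnhA libraries lay above all 3 WT libraries in 16 members and below them in 0, where 15.6% and 18.1% of all genes did so. At an unadjusted p under 0.05 there were 17 members, all higher, or 34.7% against 35.6% of all genes (16.5% higher and 19.1% lower). Relative to the WT mean of each gene, the median of the 49 was 0.093, 0.13 and 0.096 in the pRnhA libraries, 0.032, 0.01 and -0.035 in the WT libraries and 0.095 and 0.077 in the rnh1∆rnh201∆ libraries. The count of calls rested on single libraries, with 13 members called (12 higher, and lsm4 lower) without WT replicate 1, where 33.6% of all genes were called, and 1 without pRnhA replicate 2, where 3.28% were. Scaling to library totals gave 22 calls, with 25.3% of all genes called, and a median of 0.24, with all genes at 0.112, while moving each value against the difference by the most that rounding allows, an alternative added after seeing the data, left a median of 0.042.

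The largest change among the 49 genes belonged to prp4 (SPCC777.14), which encodes a protein kinase of the spliceosome that phosphorylates Prp1 and is needed for the spliceosome to become active. Its normalized counts were 670, 640 and 580 in WT, 940, 910 and 890 in pRnhA, and 770 and 780 in rnh1∆rnh201∆. The 3 groups did not overlap: every pRnhA library was above both deletion libraries, which were above every WT library. The mean rose from 630.0 ± 45.8 (SD, n = 3) to 913 ± 25.2 (SD, n = 3), or 145% of WT, a log2 fold change of 0.54 (SE 0.07, 95% interval 0.38 to 0.69, limma adjusted p 0.0042). Leaving out each of the 8 libraries in turn, prp4 was called in 8 of 8 fits, at 0.48 to 0.58. Within the 4 WT and pRnhA libraries that carry mat1-Mc the change was 0.50 with an adjusted p of 0.14 in limma, and no gene of the table was called there. In the authors' deposited table its log2 fold change is 0.53 and its adjusted p is printed as 0.

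A second gene that rose was lsm7 (SPCC285.12), a subunit of both Lsm rings. It was at 1200, 1200 and 1100 in WT, at 1400, 1600 and 1600 in pRnhA, and at 1400 in both rnh1∆rnh201∆ libraries. All 5 libraries of the altered strains were thus above the 3 WT libraries. The log2 fold change in pRnhA was 0.39 (SE 0.07, limma adjusted p 0.01), from 1167 ± 57.7 to 1533 ± 115 (SD, n = 3 each). Without pRnhA replicate 2 it lost its call, at 0.36 (adjusted p 0.055). Within the libraries with mat1-Mc it was 0.32 (adjusted p 0.18). In assembly ASM294v3 lsm7 overlaps the coding gene dsc5, so its counts are uncertain where reads could belong to either.

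The third, prp2 (SPBC146.07), encodes the large subunit of U2AF, which binds the pyrimidine tract near the end of the intron. Its counts were 1500, 1400 and 1500 in WT, 1700 in each pRnhA library, and 1600 and 1800 in rnh1∆rnh201∆. The WT values lay below those of both strains, but a rounding step at this level is 100, so the 3 equal pRnhA values stand for a range. The log2 fold change was 0.21 (SE 0.06, limma adjusted p 0.04), and rounding alone could account for up to 0.09 of it. This call rested on single libraries: it was lost without WT replicate 2 (0.18), without WT replicate 3 (0.23) and without pRnhA replicate 1, 2 or 3 (0.21 each), and with the replicate number as a block (0.21, limma adjusted p 0.07). In assembly ASM294v3 prp2 overlaps the coding gene tif1102, which makes its counts uncertain as well. Its antisense row held 13, 5 and 6 in WT, 16, 10 and 16 in pRnhA and 26 and 16 in rnh1∆rnh201∆.

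**Figure D2:**
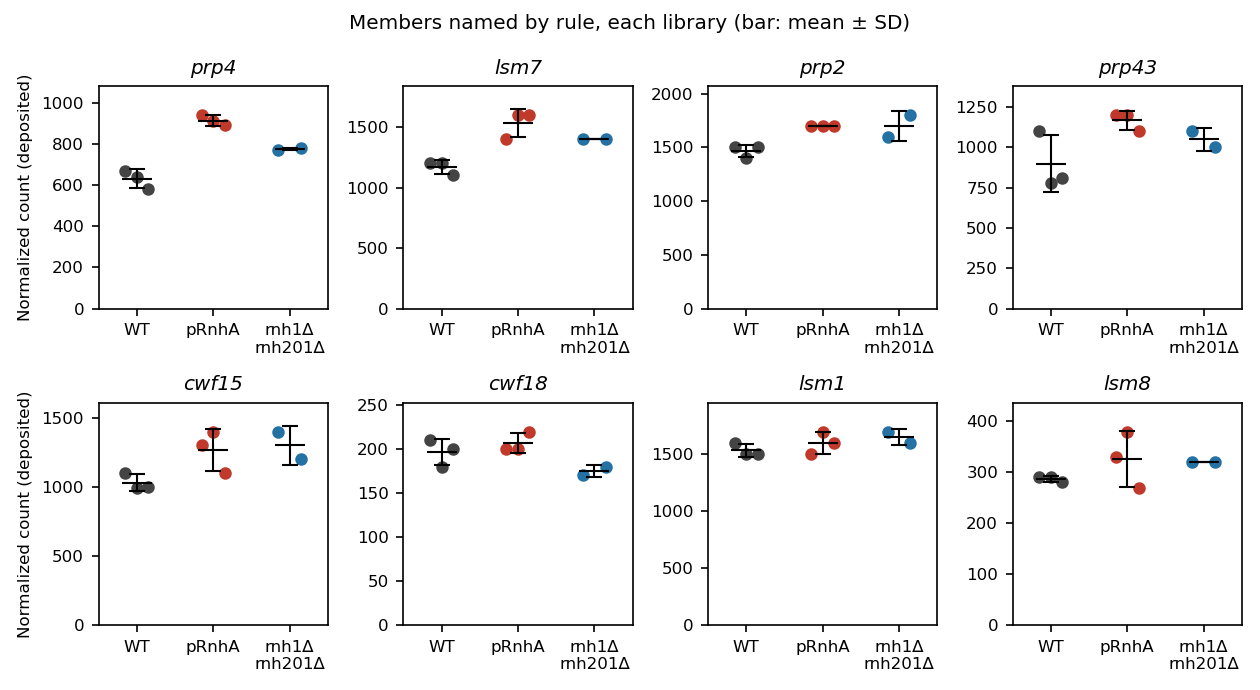
Each panel shows the DESeq2 normalized count of one gene (vertical axis, from 0) in each library as points, with the group mean and SD as a bar, for WT, pRnhA and rnh1∆rnh201∆. The prp4 points form 3 separate levels, whereas WT replicate 1 of prp43, at 1100, equals the lowest pRnhA point.

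Among the other branch site factors, prp10 and prp12 encode subunits of SF3b, the part of the U2 particle that grips the branch site, and prp11 the helicase that remodels U2. The counts of prp10 were 2600, 2600 and 2500 in WT, 2700, 2600 and 2600 in pRnhA and 2600 and 2700 in rnh1∆rnh201∆, so the groups overlapped. Its log2 fold change in pRnhA was 0.04, with a 95% interval of -0.08 to 0.15. For prp12 and prp11 the changes were 0.13 and 0.16, neither past the threshold (limma adjusted p 0.11 and 0.08). All 4 genes of this group had positive changes, against 51% of all genes. Of them 1, prp2, was called higher, where 8.88% of all genes were, and 1 call does not set so small a group apart.

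In the tri-snRNP group prp4 was the 1 gene of 8 that was called, where 8.88% of all genes were called higher. The changes of the others in pRnhA ran from -0.13 to 0.18. The substrate of the kinase, prp1, a U5 protein that bridges the particles, was at 1300 in every WT library, at 1300, 1200 and 1200 in pRnhA, and at 1300 and 1200 in rnh1∆rnh201∆. These values differ by a single rounding step, and the log2 fold change in pRnhA was -0.08 (limma adjusted p 0.37). The helicase gene prp28, whose product displaces U1, was at 1000 in all 3 WT libraries and at 1100, 1200 and 1100 in pRnhA, a change of 0.18 (adjusted p 0.067) of which rounding could make up to 0.13. The U4/U6 protein gene prp3 was at 0.15 (adjusted p 0.11). Those of prp31, another U4/U6 protein, and prp38, which is needed for activation, were at -0.01 and -0.13. The gene of the U5 GTPase, cwf10, was at 0.10, and prp24, whose product recycles U6, was at 0.04.

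The Prp19 complex and the proteins around the catalytic core made the largest group. All 12 of its genes had positive changes in pRnhA, against 51% of all genes, and their median was 0.17. None was called by limma, where 20.2% of all genes were. In the authors' deposited table cwf15, cwf2, prp45 and cwf14 were past 0.05, all higher, where 32.4% of all genes with a p-value were. An unadjusted p under 0.05 was found for 5, or 41.7%, all higher, against 35.6% of all genes (16.5% higher and 19.1% lower). The highest was cwf15, a core protein gene, at 1100, 990 and 1000 in WT, 1300, 1400 and 1100 in pRnhA, and 1400 and 1200 in rnh1∆rnh201∆. One pRnhA library, replicate 3, met the highest WT value, and the change was 0.29 (SE 0.10, adjusted p 0.075). It was called without pRnhA replicate 3, at 0.39. The gene of the RNA-binding protein Cwf2 had the lowest adjusted p of the group: it was at 920, 910 and 870 in WT and at 990, 1100 and 1000 in pRnhA, without overlap, for a change of 0.19 (limma adjusted p 0.053). The ubiquitin ligase gene prp19 itself was at 0.17 (adjusted p 0.18), and those of its scaffold partners cwf7, cwf3 and cwf4 were at 0.18, 0.18 and 0.08. The remaining genes of the group, prp5, cwf5, cwf11, cwf12, cwf14 and prp45, were at 0.07, 0.07, 0.03, 0.23, 0.15 and 0.19.

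Of the 7 step and release factors, prp43 showed the widest spread. Prp43 is the DEAH-box helicase that takes spent spliceosomes apart and also serves ribosome assembly. Its counts were 1100, 780 and 810 in WT, 1200, 1200 and 1100 in pRnhA, and 1100 and 1000 in rnh1∆rnh201∆. WT replicate 1 alone was as high as the altered strains, and the change in pRnhA was 0.40 (SE 0.12, limma adjusted p 0.056). Without WT replicate 1 it was called at 0.55 (adjusted p 0.0013), and it was called with the replicate block too (0.40, adjusted p 0.035). The helicase gene prp22, whose product releases the spliced mRNA, was at 0.10 (adjusted p 0.25). The helicase gene prp16 and the gene of the second-step factor Prp17 were at -0.05 and -0.03, and that of the second-step factor Prp18 at 0.18. None of these passed, nor did the first-step factors cwf25 (0.18) and cwf16 (-0.01).

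Among the 10 other Cwf genes, 8 had positive changes in pRnhA, against 51% of all genes. Limma called 0 of them, where 20.2% of all genes were called. Their changes ran from -0.09 for cwf23, which encodes a J-domain protein, to 0.21 for cwf19. The lowest adjusted p was that of cwf24, at 420, 430 and 420 in WT and 470, 510 and 480 in pRnhA (0.20, limma adjusted p 0.054). The genes of the retention and splicing complex, cwf26 and cwf29, were at 0.03 and -0.07, and cwf18, cwf20, cwf21, cwf22 and cwf28 were at 0.07, 0.06, 0.06, 0.07 and 0.12.

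The 2 subunits that tell the Lsm rings apart were both uncalled. The decay ring gene lsm1 was at 1600, 1500 and 1500 in WT, 1500, 1700 and 1600 in pRnhA and 1700 and 1600 in rnh1∆rnh201∆, and the groups overlapped (0.06, 95% interval -0.09 to 0.20, limma adjusted p 0.54). The nuclear ring gene lsm8 was at 290, 290 and 280 in WT, 330, 380 and 270 in pRnhA and 320 in both deletion libraries (0.17, interval -0.10 to 0.45, adjusted p 0.34). For lsm8, pRnhA replicate 3 lay below every WT library and replicate 2 above all others. Of the shared subunits, lsm2, lsm3, lsm5 and lsm6 were at 0.26, 0.22, 0.15 and 0.17. Only lsm4 of the 8 had a negative change, where 51% of all genes had a positive one. It was at -0.14 (limma adjusted p 0.29), with 1000, 1200 and 1200 in WT and 1100, 1000 and 970 in pRnhA.

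**Figure D3:**
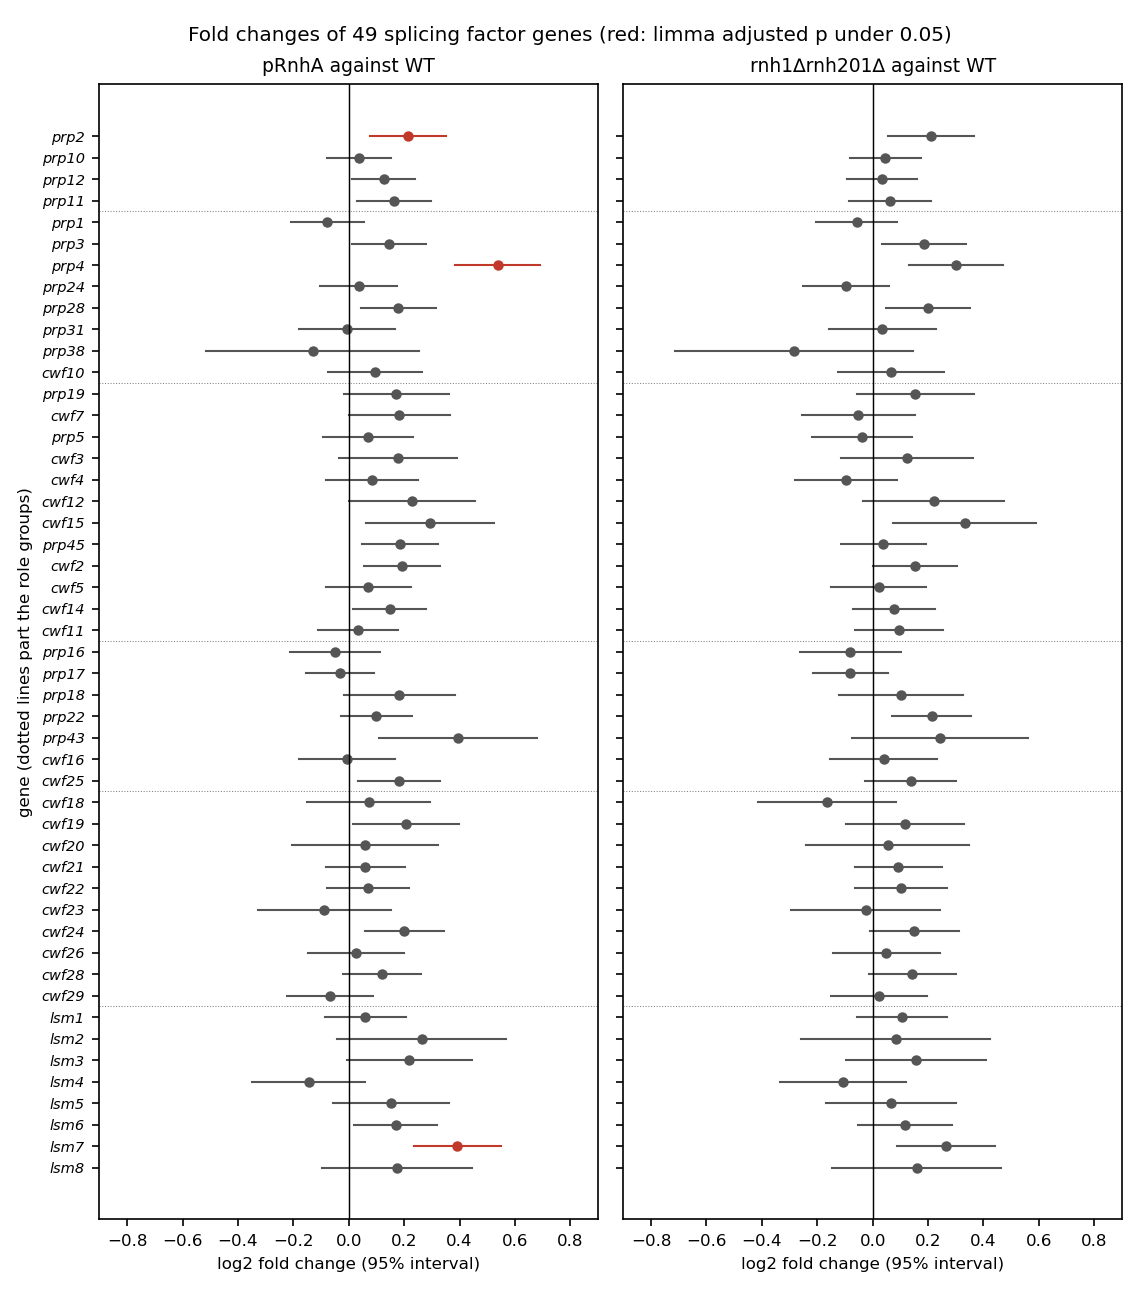
Points are log2 fold changes against WT with 95% intervals from limma (horizontal axis) for each gene (vertical axis, grouped by role), for pRnhA on the left and rnh1∆rnh201∆ on the right; red marks an adjusted p under 0.05. The 3 red genes, prp2, prp4 and lsm7, are all on the left, and both panels use the same WT libraries.

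The comparison of rnh1∆rnh201∆ with WT asked what the loss of the cell's own RNase H does to the same genes. None of the 49 was called by limma, where 0.294% of all genes tested were (0.0774% higher and 0.217% lower), while 7 had an unadjusted p under 0.05, all higher. That is 14.3% of the members against 21.3% of all genes (10.9% higher and 10.4% lower). The authors' deposited table has 6 members past 0.05, all higher (prp2, prp3, prp4, prp28, cwf15 and prp22), where it has 15.4% of all genes with a p-value. In 38 of 49 members the change was positive, against 52.2% of all genes, and the median was 0.083, against 0.011. The deletion libraries lay above all WT libraries in 13 members and below in 0; over all genes these shares were 15% and 13.9%.

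The largest change here was that of cwf15, at 0.33 (SE 0.11, limma adjusted p 0.15), with 1400 and 1200 in the deletion against at most 1100 in WT. For prp4 the change was 0.30 (SE 0.07, 95% interval 0.13 to 0.47, adjusted p 0.085), the lowest adjusted p of the 49. The count of calls rested on WT replicate 1: without it 5 members were called, prp4 (0.35), prp43 (0.40), lsm7 (0.28), prp22 (0.25) and prp3 (0.22). In that fit 19.6% of all genes were called. With both deletion libraries at 2200 and the WT libraries at 2000, 1800 and 1900, prp22 was at 0.21 (adjusted p 0.12), and prp3, prp28, lsm7 and prp2 were at 0.19, 0.20, 0.26 and 0.21. The member furthest below 0 was prp38, at 94, 110 and 86 in WT and 69 and 90 in the deletion (-0.28, 95% interval -0.71 to 0.14). It had the lowest mean count and the widest interval of the 49.

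Set side by side, the changes against WT were 0.54 in pRnhA and 0.30 in rnh1∆rnh201∆ for prp4, 0.39 and 0.26 for lsm7, 0.21 and 0.21 for prp2, and 0.29 and 0.33 for cwf15. Both columns of values share the 3 WT libraries, so their likeness is no separate result. The difference between the strains was tested directly in the same fit. No member was called by limma there, where 0.356% of all genes were (0.232% higher and 0.124% lower). Without adjustment, 2 members had a p under 0.05, both lower in the deletion. That is 4.08% of the members against 12.5% of all genes (7.53% higher and 5.02% lower). The difference was above 0 in 17 of 49 members, against 51.8% of all genes. The deletion libraries lay above all pRnhA libraries in 1 member, prp22, and below them in 8, where 17.9% and 14.1% of all genes did so. The 2 with an unadjusted p under 0.05 were prp4, lower in the deletion by a log2 difference of -0.24 (95% interval -0.41 to -0.07, limma adjusted p 0.26), and cwf7, at -0.23 (interval -0.44 to -0.03, adjusted p 0.34). The gene furthest apart was cwf18, at 170 and 180 in the deletion and 200, 200 and 220 in pRnhA (-0.24, adjusted p 0.42). WT, at 210, 180 and 200, overlapped both strains for cwf18. For prp2 and lsm8 the difference was -0.002 and -0.02, with intervals of -0.16 to 0.15 and -0.32 to 0.29.

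Other spliceosome genes were read from a list by name, and 55 of 68 listed names were in the table. Some absent names are older names of members, such as uaf1 for prp2 and snw1 for prp45. In pRnhA 10 of the 55 were called higher (18.2%, against 8.88% of all genes) and 1 lower (1.82%, against 11.4%). Positive changes were found in 44, or 80%, against 51% of all genes, with a median of 0.17. The list holds 2 genes that do other work, spp27, a factor of RNA polymerase I, and sad1, a spindle pole body protein, and sad1 was among those called; the other 53 gave 9 higher and 1 lower. The largest rise was that of snu13, whose product binds the U4 RNA and also box C/D nucleolar RNAs. It was at 880, 750 and 700 in WT and 1200, 1200 and 1100 in pRnhA (0.59, limma adjusted p 0.0062), and at 1100 in both deletion libraries. Of the 7 Sm core genes, whose proteins ring the U1, U2, U4 and U5 RNAs, smg1, smd3 and sme1 rose by 0.51, 0.24 and 0.21 (limma adjusted p 0.022, 0.026 and 0.043), whereas smd1, smd2, smf1 and smb1, at 0.22, 0.22, 0.05 and -0.07, were not called. The tri-snRNP genes dim1 and snu66 rose by 0.38 and 0.33 (limma adjusted p 0.018 and 0.021). The gene that fell was dsk1, a kinase of SR proteins, at 1000, 1100 and 990 in WT and 840, 860 and 870 in pRnhA (-0.26, adjusted p 0.019). In rnh1∆rnh201∆ 0 of the 55 were called by limma, where 0.294% of all genes were. An unadjusted p under 0.05 was found for 14 of them, 11 higher and 3 lower, or 25.5% against 21.3% of all genes.

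The partners of the Lsm1 ring in decapping were read from a list of 9 names, of which pat1 entered by name alone: in fission yeast it is the kinase Ran1, which holds back meiosis, and the homologue of the decapping factor Pat1 of budding yeast is Pdc2. Of the 8 genes without pat1, 5 had negative changes in pRnhA and 1 was called, lower, where 11.4% of all genes were. This was edc3, an enhancer of decapping, at 2100 in each WT library and 1800, 1800 and 1700 in pRnhA (-0.25, limma adjusted p 0.013). The change of pdc2 was 0.02 (adjusted p 0.89). In rnh1∆rnh201∆ limma called 0 of the 8, and 2 had an unadjusted p under 0.05, both lower, where 10.4% of all genes were lower at that p. The spliceosomal RNAs were poorly covered: U4 (snu4) and U5 (snu5) were at 0 to 4 in every library. U2 (snu2) was at 270, 390 and 420 in WT and 340, 560 and 720 in pRnhA, with overlap (0.54, adjusted p 0.19).

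Antisense rows exist for 8 of the 49 genes, and whether reads were counted by strand is not given in the sources used here, so reads of the 2 strands cannot be told apart with certainty. Most were scarce, but cwf19-antisense-1 was at 330, 370 and 510 in WT, 290, 300 and 330 in pRnhA and 290 and 350 in rnh1∆rnh201∆. In single libraries that was between 37.2% and 78.5% of the cwf19 row. The highest antisense value came from WT replicate 3, in which cwf19 was lowest, at 650. At an antisense value of 330, however, cwf19 was at 780 in WT replicate 1 and at 870 in pRnhA replicate 3. The antisense row of prp22 was at 200, 320 and 440 in WT and 210 to 250 in the other libraries. Of the 8 antisense rows limma called cwf4-antisense-1 and cwf20-antisense-1 lower in pRnhA, at -1.69 and -1.24 (adjusted p 0.021 and 0.041). Over all genes tested 11.4% were called lower. Counts were 12 to 32 in WT and 3 to 9 in pRnhA, near the floor, so these fold changes rest on few counts. Their sense genes, cwf4 and cwf20, were at 0.08 and 0.06.

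**Figure D4:**
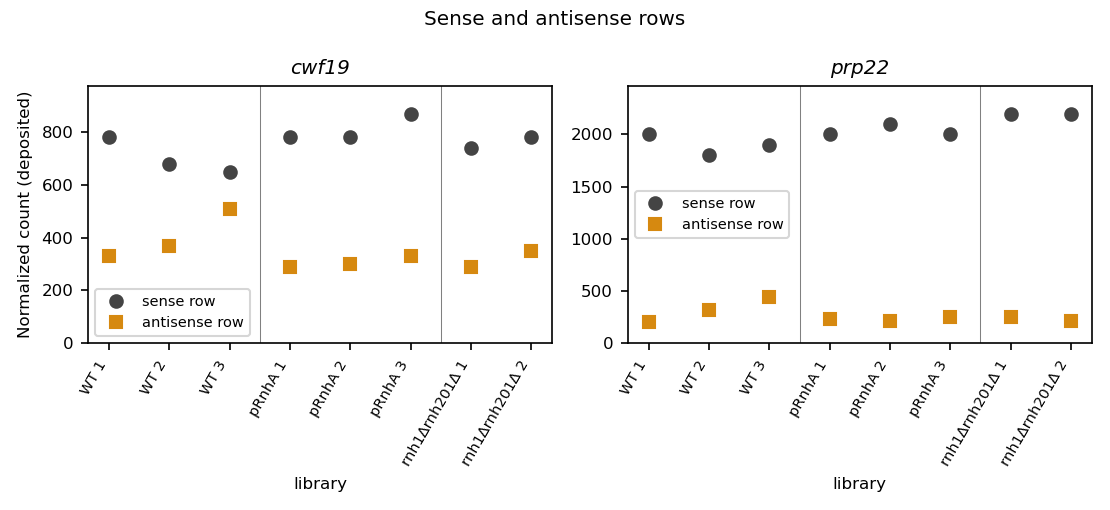
Normalized counts (vertical axis) of the sense row (circles) and the antisense row (squares) are shown in each library for cwf19 and prp22. In both panels the antisense row is highest in WT replicate 3, at 510 and 440.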

How the data were processed

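RNA was measured in 8 of the 29 samples listed in the series; the others were not analysed here. Per the labels' protocols, libraries of hot-phenol RNA were made with a strand-keeping (directional) kit and sequenced to 50 bases. The submitters' processing notes name, among the authors' tools, TopHat2 2.0.5 and DESeq2, and the builds ASM294v2 and hg19. The notes give no roles, and the counting tool, the annotation and the use of strand are not given in the sources used here. Per the file headers, the authors deposited DESeq2 normalized counts with a log2 fold change and an adjusted p-value for each strain. The normalized counts are treated as a score, since the authors rounded them to at most 2 significant digits. The header names no reference group for the fold changes. Across 4532 genes averaging 200 or more, their correlation with the log2 ratio to WT was 0.908 (rnh1∆rnh201∆) and 0.968 (pRnhA), against 0.112 and 0.49 for the ratio of one altered strain to the other, so WT was taken as the reference. Those p-values were deposited to 2 decimals.

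The design had foreseen raw counts or normalized values; as the latter were found, limma-trend (limma 3.58.1, R 4.3.3) was fitted to log2(value + 1) of the 6456 rows with a mean of at least 1, with 8 libraries in 3 groups, 5 residual degrees of freedom and Benjamini-Hochberg adjustment over all rows at 0.05. The members, roles and lists were chosen with earlier results of these data known. Genes with full values are those called, lsm1 and lsm8, and the 2 largest changes per contrast at a mean of at least 20; others illustrate their group and were picked after their values were seen. Replicate numbers are shared between groups. Deviations from group means correlated at 0.344, 0.355 and 0.601 for the same-numbered WT and pRnhA libraries, and at -0.167 and 0.385 for WT and rnh1∆rnh201∆. Differently numbered WT and pRnhA libraries with the same mating-type transcript correlated as highly (0.374 and 0.325). The correlations therefore do not establish pairing by number for replicates 1 and 2. In replicate 3 of WT and pRnhA, number and mat2-Pc go together and cannot be told apart. Every pair with unlike transcripts correlated negatively, but deviations within a group sum to 0, which by itself forces some negative values. The main fit took no pairing, and the replicate block was an alternative. Symbols, and which genes overlap or neighbour each other, come from the RefSeq table of assembly ASM294v3, which matched 49 of 49 members. The authors' build differs by name, so no coordinates, lengths or sequences are given. Alternatives were the pseudocount, the filter, scaling, the groups in the fit, a replicate block, the mating-type transcript, each library left out, the authors' deposited calls and, added after seeing the data, rounding against the difference.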

Additional observations from a re-analysis of the deposited data

How the results depend on the processing

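In pRnhA the 3 called members became 7 with no filter on low values (13.8% of all genes called). They became 5 with a mean of at least 10 (22.7%) and 22 with scaling to library totals (25.3%). The authors' deposited DESeq2 table has 12 (32.4%). Within the libraries with mat1-Mc there were 0, and no gene of the table was called. That fit held fewer libraries than the main fit, and 38 of 49 members still had a positive change in it. The cause of these shifts was not tested. The other settings gave 2 or 3. Leaving out one library gave 1 (without pRnhA replicate 2) to 13 (without WT replicate 1). In rnh1∆rnh201∆ 0 calls became 2 with library totals (3.3% of all genes) and 6 in the deposited table (15.4%), and 0 to 5 with one library left out. Between the strains the count was 0 under every alternative run. The median change of the members in pRnhA was 0.24 with library totals, 0.099 within mat1-Mc and 0.042 with rounding against the difference, and 0.095 to 0.16 with one library left out. In rnh1∆rnh201∆ these were 0.14, 0.047, 0.022 and 0.058 to 0.12. Of the deletion libraries only replicate 2 carries mat1-Mc, so the 0.047 rests on that library alone. Between the strains the median was -0.091 with library totals and -0.049 to -0.024 with one library left out. Library totals moved the median of all genes to 0.112 in pRnhA. Relative to that shift the members' median was 0.124, and 40 of 49 lay above it. In rnh1∆rnh201∆ the median of all genes moved to 0.0708. Relative to that shift the members' median was 0.0722, and 38 of 49 lay above it. With the replicate block 3 members were called in pRnhA: prp4, lsm7 and prp43, with prp2 lost, and it changed no other call of a member. With the mating-type transcript as a term prp2 was lost, at 0.21 (limma adjusted p 0.051), and with rounding against the difference at 0.12. Raw depth is unknown, and rounding limits small changes, with a share of up to 0.13 for prp28 in pRnhA.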

Other observations

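The coding genes next to the 3 members called higher in pRnhA were read for comparison, by their order in assembly ASM294v3. Beside prp4, vps35 (a retromer subunit) fell from 2000, 1900 and 2000 in WT to 1600, 1600 and 1700 in pRnhA, a change of -0.27 (limma adjusted p 0.015). The other neighbour of prp4, SPCC777.15, fell by 0.51 (adjusted p 0.047). Thus prp4 rose between 2 genes that fell. Beside lsm7, dsc5, which overlaps it, fell by 0.49 (adjusted p 0.012), whereas nup60, of the nuclear pore, rose by 0.33 (adjusted p 0.029). Beside prp2, tif1102 rose by 0.42 (adjusted p 0.022) and overlaps prp2, while fan1 was at 0.06 (adjusted p 0.66). Over all genes tested, 8.88% were called higher and 11.4% lower in pRnhA. In rnh1∆rnh201∆, vps35, SPCC777.15 and dsc5 were at -0.25, -0.41 and -0.34, and nup60, tif1102 and fan1 at 0.17, 0.37 and 0.14. Limma called none of these there, where 0.294% of all genes were called, and both comparisons share the WT libraries.

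Of the 49 members, 4 lie next to another member: cwf22 beside cwf24, and prp11 beside cwf23. Their changes in pRnhA were 0.07, 0.20, 0.16 and -0.09. In that assembly 24 members overlap another coding gene, 33 overlap a noncoding or other gene, and 6 overlap no gene. Any shared position counted as an overlap, whatever its length or strand. Counts of these members may therefore depend on how overlapping reads were assigned, which is not stated, and the size of this was not tested.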
